A study of Mus musculus with 7 samples.

Results

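Transcripts of splenic red pulp macrophages were followed in RNA from sorted regulatory T cells (Tregs). The 39 genes were named by symbol for macrophage identity, iron and haem handling, scavenging and complement, and all 39 were found among the 51138 genes of the count table. The study measured RNA in Tregs sorted from spleens of C57/BL6 mice carrying RFP-FoxP3, a red fluorescent reporter of the Treg transcription factor Foxp3. Mice of 1 group received 20 ug of IL-2/CD25, a fusion protein (FP) of the cytokine interleukin-2 and the CD25 chain of its receptor, and gave 4 libraries. The other group received 100 uL of PBS, the injection control, and gave 3 libraries. Spleens of both groups were taken 72 h after injection, and strain, reporter, tissue and sort were shared. The labels give no age or sex, no purity of the sort, and no statement that each library came from its own mouse, so tests across libraries measure only the spread between these samples.

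Red pulp macrophages clear aged red blood cells from the splenic circulation. They take up the cells or free haemoglobin, open the haem ring with haem oxygenase, and return iron to the blood through ferroportin. The transcription factor Spi-C is needed for their development, and the adhesion molecule Vcam1 is among their surface markers. C1q, Fc receptors and phosphatidylserine receptors let macrophages bind opsonised particles and dying cells, and lysosomal proteases then digest what was taken up.

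Total counts were 9956509 to 13429878 per library, and no pair of libraries of a group agreed within sampling noise. Levels are given as CPM, counts divided by library sizes that were scaled by the trimmed mean of M values, and in lists of values the libraries stand in the order of their replicate numbers. Where a library holds 0 counts, as many as 3 remain possible at this depth, and 3 counts are 0.214 to 0.322 CPM. The Treg marker Foxp3 lay at 483 to 596 CPM after FP and at 483 to 497 CPM after PBS, so the sorted cell type was present in every library. The 7 defining red pulp macrophage markers Spic, Vcam1, Adgre1, Hmox1, Slc40a1, Cd163 and Csf1r summed to 12.8 to 88.6 CPM after FP and to 632 to 1613 CPM after PBS. All 7 are among the 39 genes, which were chosen with their fold changes known. Their sums therefore describe the choice and do not test the name of the gene group. Markers of marginal zone and metallophilic macrophages, which sit beside the white pulp, summed to 2.47 to 14.3 CPM after FP and 35.3 to 89.3 CPM after PBS with 5 of 5 tested called lower, as were 18.5% of all genes (edgeR adjusted p under 0.05). Marco, Timd4, Nr1h3 and Cd5l of this list are among the 39 genes. Without them the sums were 0.366 to 1.68 and 4.05 to 12.3 CPM with 1 gene tested and called lower, and Cd209b among them was at most 0.146 CPM in any library. Across all 15954 genes tested, 53.2% of the calls were higher after FP. That share was 33.2% with upper-quartile scaling and 28.6% with library size alone, which shifted the log2 fold changes of all genes, by -0.20 and -0.26 at the median.

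Markers of other cells were summed in the same way, beside 18.5% of all genes called lower after FP, 21.0% called higher and 39.5% in either direction, and the part of these cells in the macrophage result was not tested. Treg and T cell markers summed to 6414 to 7745 CPM after FP and 4384 to 4977 CPM after PBS, with 5 of 10 called higher and none lower. Erythroid markers overlapped, at 44.7 to 69.5 and 39.3 to 56.2 CPM, with 0 of 8 tested called lower and 1 higher. The 4 haemoglobin chain genes among them ran from 4.11 to 23.4 CPM and from 6.87 to 19.7 CPM. Dendritic cell markers were at 102 to 122 CPM after FP and 120 to 173 CPM after PBS, with 5 of 7 tested lower and 1 higher. Neutrophil markers summed to 2.15 to 6.03 and 3.0 to 10.9 CPM, with 1 lower and 1 higher of 2 tested and Elane, Retnlg and Mmp8 at 0 in all libraries. Monocyte markers summed to 859 to 1410 CPM after FP and 734 to 878 CPM after PBS, with 3 of 8 tested lower and 2 higher. Natural killer cell markers summed to 3.56 to 8.16 and 23.6 to 51.0 CPM, with 3 of 3 tested lower, and without Tyrobp and Fcer1g, which are among the 39 genes, to 0.966 to 1.55 and 4.02 to 5.94 CPM. B cell markers summed to 454 to 570 CPM after FP and 362 to 410 CPM after PBS. Of these 10 genes, however, 3 were lower and 2 higher, and their median log2 fold change was -0.77. Plasma cell markers were at 93.6 to 155 and 55.1 to 64.1 CPM, with only 1 of 6 genes tested, and that 1 called higher. CD8 T cell markers were at 7.83 to 12.9 and 8.91 to 9.78 CPM, with 0 of 2 called lower or higher. Megakaryocyte and platelet markers summed to 115 to 171 and 82.3 to 89.9 CPM, with 2 of 7 genes tested, 1 lower and 1 higher. Endothelial and stromal markers summed to 179 to 203 and 210 to 253 CPM. Of these 11 genes 4 were tested, with 1 lower, 1 higher and a median log2 fold change of 0.26. Basophil, mast cell and eosinophil markers summed to 0.621 to 0.966 and 2.49 to 3.41 CPM, with 2 of 9 tested and 1 lower.

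**Figure D1:**
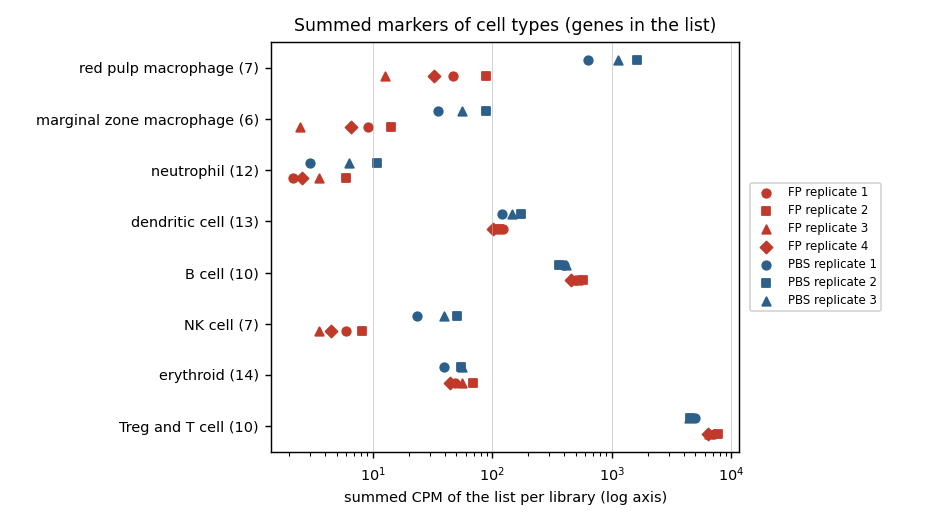
Summed CPM of marker genes of 8 cell types in each library, on a log axis, with FP libraries in red and PBS libraries in blue and the number of genes of each list in brackets. Red pulp macrophage markers lay at 12.8 to 88.6 CPM after FP and 632 to 1613 CPM after PBS, whereas erythroid markers overlapped.

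The macrophage transcripts were a minor part of each library and were lower after FP. Summed over 36 genes without the cathepsins Ctsb, Ctsd and Ctss, they made up 0.140% to 0.368% of the counts after PBS and 0.00688% to 0.0233% after FP. The same sum was 163, 275, 70.8 and 126 CPM after FP and 1309, 3284 and 2343 CPM after PBS, with means of 159 ± 86.1 (SD, n = 4) and 2312 ± 988 (SD, n = 3), a 14.6-fold difference. The highest FP library stayed below the lowest PBS library. In bulk RNA, fewer cells of a type and less RNA per cell cannot be told apart, and neither can the cells that a transcript came from.

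Of the 39 genes, 36 passed the edgeR threshold as lower after FP, and none passed as higher. Of all genes tested, 18.5% were called lower, 21.0% higher and 39.5% in either direction. The genes were chosen by name with their fold changes in this same comparison known, so these counts describe the choice and are no evidence of it. None of the 39 was higher at an unadjusted p under 0.05, and the count called higher was also 0 with DESeq2 and limma-voom. In 36 genes all FP libraries lay below all PBS libraries, as they did in 23.5% of the genes tested. At the median they had a log2 fold change of -3.61, a 12.2-fold lower level, against -0.05 over the whole table. Leaving out FP replicate 2 made the median -4.24. All 39 passed the filter on low counts. Of these, 12 reached its level of 0.887 CPM in all PBS libraries but in fewer than 3 FP libraries. They would not have passed on their FP libraries alone, so the filter favoured a lower FP level in them. These were Slco2b1, Paqr9, Epor, Spi1, Cd163, Trf, Timd4, Marco, Cd14, Fcgr1, Fcgr3 and Hpgd.

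**Figure D2:**
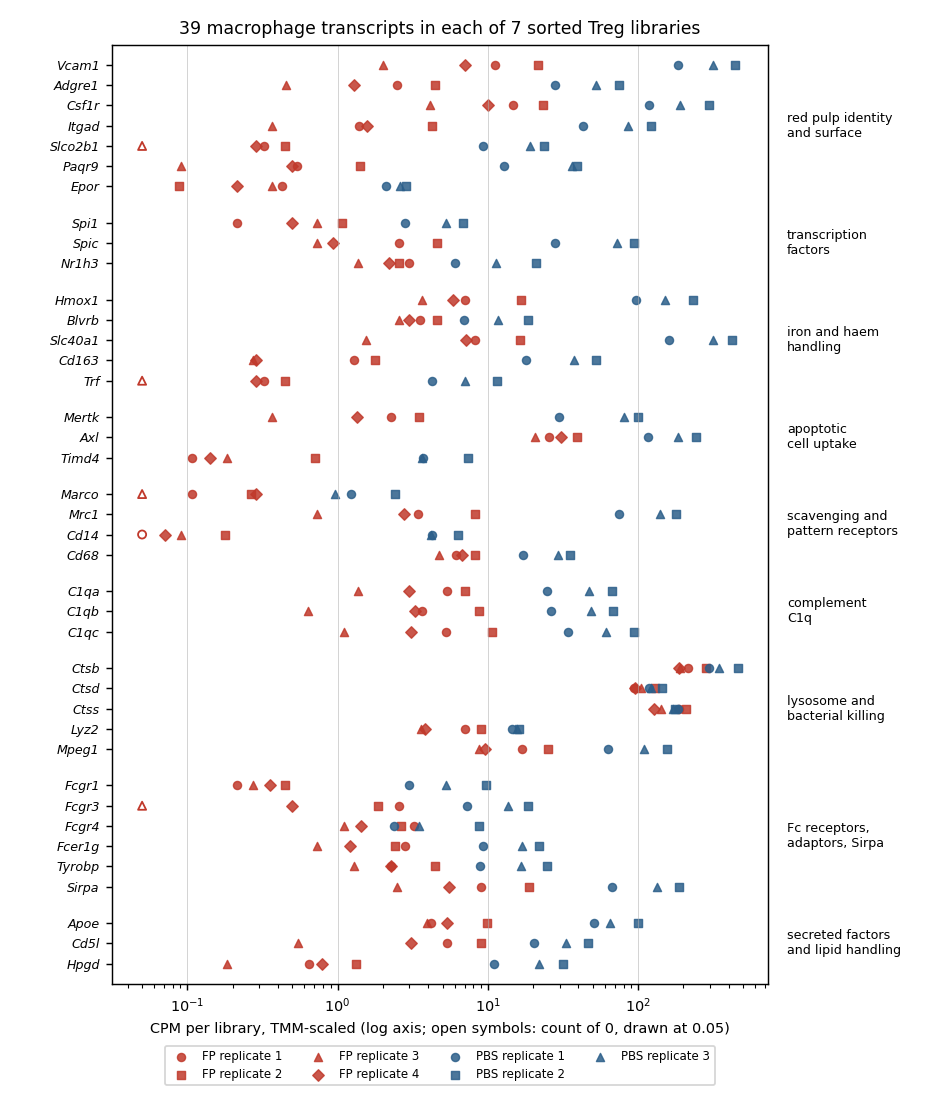
CPM of the 39 genes in each of the 7 libraries on a log axis, by functional group, with FP libraries in red and PBS libraries in blue and open symbols for a count of 0. Most genes form a red cluster to the left of a blue one, whereas Ctsd, Ctss and Fcgr4 overlap.

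Surface markers of red pulp macrophages had a median log2 fold change of -4.92 (-5.56 without FP replicate 2). Vcam1, an adhesion molecule that binds integrins on blood cells (chr3:116109949-116129688 of GRCm38, minus strand), had 11.2, 21.5, 2.01 and 7.05 CPM after FP and 183, 443 and 313 CPM after PBS. Its means were 10.4 ± 8.26 CPM (SD, n = 4) after FP and 313 ± 130 CPM (SD, n = 3) after PBS, a 30.2-fold lower fitted level after FP (log2 fold change -4.92, SE 0.65, -5.56 without FP replicate 2). The lowest PBS library held more than every FP library, and within FP the values themselves were spread widely, from replicate 3 at the bottom to replicate 2 at the top. Adgre1, an adhesion receptor whose protein is the common stain of mouse macrophages, had 2.47, 4.43, 0.457 and 1.28 CPM after FP and 28, 74.8 and 52.1 CPM after PBS (log2 fold change -4.60, SE 0.57, -5.24 without FP replicate 2). Csf1r, the receptor for the growth factor that keeps macrophages alive, had 14.6, 23.4, 4.11 and 10.0 CPM after FP and 118, 295 and 190 CPM after PBS. Its log2 fold change of -3.95 (SE 0.54) was smaller than those of Vcam1 and Adgre1.

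Itgad, the CD11d integrin chain, had 1.39, 4.26, 0.366 and 1.57 CPM after FP and 42.8, 122 and 85.4 CPM after PBS (log2 fold change -5.44, SE 0.60, -6.19 without FP replicate 2). Both groups were again apart, with PBS replicate 2 highest and FP replicate 3 lowest. Slco2b1, a transporter of organic anions, had the lowest log2 fold change of the 39 genes, -5.99 (SE 0.50), from 0.322, 0.443, 0 and 0.285 CPM after FP and 9.25, 23.6 and 19 CPM after PBS. It had 12 counts in all FP libraries and 646 in all PBS libraries, so that PBS exceeded FP 67.3-fold (95% counting interval 38.3 to 131). Paqr9, a membrane receptor of the progestin and adiponectin receptor family, had 0.537, 1.42, 0.0914 and 0.498 CPM after FP and 12.8, 39.3 and 36.1 CPM after PBS (log2 fold change -5.51, SE 0.58, -6.24 without FP replicate 2). Epor, the erythropoietin receptor, was the least abundant of the 7 and had 0.429, 0.0887, 0.366 and 0.214 CPM after FP and 2.12, 2.85 and 2.62 CPM after PBS (log2 fold change -3.21, SE 0.40). All 7 genes of this group were called lower.

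The transcription factors were lower as well, at a median log2 fold change of -2.96. Spic, which encodes Spi-C (chr10:88674772-88685015, minus strand), had 2.58, 4.61, 0.731 and 0.925 CPM after FP and 27.9, 93.9 and 72 CPM after PBS (log2 fold change -4.90, SE 0.64, -5.59 without FP replicate 2). Spi1, which encodes the myeloid master factor PU.1, had 0.215, 1.06, 0.731 and 0.498 CPM after FP and 2.82, 6.87 and 5.24 CPM after PBS (log2 fold change -2.96, SE 0.43). Nr1h3, which encodes the oxysterol receptor LXR alpha of macrophages, had 3.0, 2.57, 1.37 and 2.21 CPM after FP and 6.08, 20.8 and 11.4 CPM after PBS. Its log2 fold change was -2.49 (SE 0.40), and its lowest PBS library, at 6.08 CPM, was above its highest FP library, at 3.0 CPM. PBS replicate 2 was highest for all 3 factors.

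PU.1 and Spi-C are ETS family proteins that bind a purine-rich core. Promoter sequences from RefSeq (GRCm38.p6) were found for 25 of the 39 genes in 32 windows of 250 bases before an annotated start, and none was found for Adgre1, C1qa, Cd14, Csf1r, Ctsb, Hmox1, Itgad, Paqr9, Sirpa, Slc40a1, Spi1, Trf, Tyrobp and Vcam1. The letters GAGGAA, searched on both strands, occurred in 16 of these 32 windows (50%), from 14 genes, and in 23.3% of all 32851 RefSeq promoter windows of the same length. The E-box CACGTG, bound by lysosomal regulators, was in the window of Ctsd alone, against 6.02% of all windows, and the antioxidant response core TGACNNNGC was in those of C1qb and Ctsd, against 10.2%. A match is a description of letters and shows no binding. Printed here are 5 windows that set side by side genes that were strongly lower after FP with and without the letters, and Ctss, which has them and was not called. Capitals mark GAGGAA or its reverse complement TTCCTC, and each runs 5′ to 3′ on the strand of its gene. The windows are Cd163 (chr6:124304401-124304650, plus strand), C1qb (chr4:136886201-136886450, minus strand), Cd5l (chr3:87357631-87357880, plus strand), Fcgr1 (chr3:96293970-96294219, minus strand) and Ctss (chr3:95526536-95526785, plus strand).
Cd163: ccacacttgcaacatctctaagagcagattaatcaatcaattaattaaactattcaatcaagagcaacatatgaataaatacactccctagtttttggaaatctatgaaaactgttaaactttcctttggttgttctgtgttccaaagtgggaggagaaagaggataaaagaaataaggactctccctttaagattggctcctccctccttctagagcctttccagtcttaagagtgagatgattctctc
C1qb: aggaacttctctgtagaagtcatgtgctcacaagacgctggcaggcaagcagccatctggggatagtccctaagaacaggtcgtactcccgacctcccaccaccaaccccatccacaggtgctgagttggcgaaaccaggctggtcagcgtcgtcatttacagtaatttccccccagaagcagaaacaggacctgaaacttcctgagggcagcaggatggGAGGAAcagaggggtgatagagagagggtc
Cd5l: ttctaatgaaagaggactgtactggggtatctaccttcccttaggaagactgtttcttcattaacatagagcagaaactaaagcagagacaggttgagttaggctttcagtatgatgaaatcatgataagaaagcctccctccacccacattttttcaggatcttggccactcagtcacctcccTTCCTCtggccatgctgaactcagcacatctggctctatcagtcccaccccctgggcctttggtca
Fcgr1: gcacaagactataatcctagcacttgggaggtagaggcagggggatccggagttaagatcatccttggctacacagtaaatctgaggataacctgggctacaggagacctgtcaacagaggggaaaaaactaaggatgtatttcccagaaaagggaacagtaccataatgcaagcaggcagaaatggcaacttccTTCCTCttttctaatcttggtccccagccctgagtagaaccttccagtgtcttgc
Ctss: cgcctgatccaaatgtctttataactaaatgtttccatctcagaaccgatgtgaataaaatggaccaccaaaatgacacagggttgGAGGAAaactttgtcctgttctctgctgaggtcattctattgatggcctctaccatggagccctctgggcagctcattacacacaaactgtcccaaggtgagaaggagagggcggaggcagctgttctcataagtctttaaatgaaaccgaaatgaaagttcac
C1qb, Cd5l, Fcgr1 and Ctss each hold 1 match, and Cd163 holds 0. The 5 were picked with their fold changes and matches known, so nothing is read from their order.

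All 5 genes of iron and haem handling were called lower, with a median log2 fold change of -4.81. Hmox1, the haem oxygenase that opens the haem ring and frees its iron (chr8:75093621-75100589, plus strand), had 7.08, 16.6, 3.66 and 5.84 CPM after FP and 97.5, 232 and 152 CPM after PBS. Its means were 8.29 ± 5.71 CPM (SD, n = 4) after FP and 160 ± 67.7 CPM (SD, n = 3) after PBS, a 19.4-fold lower fitted level (log2 fold change -4.28, SE 0.51, -4.87 without FP replicate 2). Slc40a1, which encodes ferroportin, the exporter of that iron (chr1:45908068-45926523, minus strand), had 8.15, 16.3, 1.55 and 7.12 CPM after FP and 160, 422 and 315 CPM after PBS. This was a 36.1-fold lower fitted level (log2 fold change -5.17, SE 0.63), and the highest FP library, at 16.3 CPM, lay far below the lowest PBS library, at 160 CPM.

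Cd163, the receptor for haptoglobin bound to haemoglobin, had 1.29, 1.77, 0.274 and 0.285 CPM after FP and 17.9, 52.3 and 37.4 CPM after PBS (log2 fold change -5.36, SE 0.57, -5.97 without FP replicate 2). FP replicates 3 and 4 held it near the floor. Trf, which encodes the iron carrier transferrin, had 0.322, 0.443, 0 and 0.285 CPM after FP and 4.23, 11.6 and 7.07 CPM after PBS (log2 fold change -4.81, SE 0.53). Blvrb, which encodes biliverdin reductase B, moved least in this group. It had 3.54, 4.61, 2.56 and 2.99 CPM after FP and 6.96, 18.6 and 11.7 CPM after PBS, a 3.65-fold lower fitted level (log2 fold change -1.87, SE 0.33), and the highest FP library reached 4.61 CPM against a lowest PBS library of 6.96 CPM.

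Receptors for dying cells differed widely in their FP levels. Mertk, a receptor kinase that binds phosphatidylserine through bridging proteins, had 2.25, 3.46, 0.366 and 1.35 CPM after FP and 29.8, 101 and 80.2 CPM after PBS (log2 fold change -5.25, SE 0.61). Axl, a kinase of the same family, had 25.4, 38.9, 20.5 and 30.7 CPM after FP and 116, 244 and 185 CPM after PBS, only a 6.29-fold lower fitted level (log2 fold change -2.65, SE 0.28). After PBS the per-length level of Axl was 36.1 CPM per kb of exon and that of Mertk 16.2, whereas after FP Axl kept 5.74 and Mertk 0.428. Timd4, which encodes the phosphatidylserine receptor Tim-4, had 0.107, 0.709, 0.183 and 0.142 CPM after FP and 3.70, 7.38 and 3.67 CPM after PBS (log2 fold change -4.07, SE 0.51, -4.99 without FP replicate 2). All 3 were called lower, with a median log2 fold change of -4.07 (-4.99 without FP replicate 2).

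The scavenging and pattern receptors held both the abundant Mrc1 and genes near the floor, with all 4 called lower. Mrc1, the mannose receptor, had 3.43, 8.25, 0.731 and 2.78 CPM after FP and 75.2, 179 and 140 CPM after PBS (log2 fold change -5.12, SE 0.59, -5.83 without FP replicate 2). Cd68, a glycoprotein of the macrophage lysosome, had 6.12, 8.16, 4.75 and 6.76 CPM after FP and 17.2, 35.2 and 29.4 CPM after PBS, a 4.23-fold lower fitted level (log2 fold change -2.08, SE 0.25). Cd14, the co-receptor for lipopolysaccharide, had 0, 0.177, 0.0914 and 0.0712 CPM after FP and 4.23, 6.29 and 4.19 CPM after PBS. It had 4 counts over all FP libraries and 182 over all PBS libraries, so that PBS exceeded FP 56.9-fold (95% counting interval 21.8 to 211). Marco, a scavenger receptor of marginal zone macrophages rather than of red pulp, had 0.107, 0.266, 0 and 0.285 CPM after FP and 1.23, 2.41 and 0.961 CPM after PBS, and with 8 counts against 58 PBS exceeded FP 9.06-fold (interval 4.31 to 22). Cd14 and Marco did not share the order of the PBS libraries of most other genes: their lowest PBS library was replicate 3. For Cd14 this rested on the scaling alone, because PBS replicates 1 and 3 held 48 counts each.

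C1qa, C1qb and C1qc encode the chains of C1q, the recognition molecule of the classical complement pathway, and lie side by side on chromosome 4 (C1qb at 136880129-136886187, C1qc at 136889804-136893065 and C1qa at 136895917-136898803, all on the minus strand). C1qa had 5.37, 7.0, 1.37 and 2.99 CPM after FP and 24.7, 67 and 47.1 CPM after PBS (log2 fold change -3.48, SE 0.50). C1qb had 3.65, 8.69, 0.640 and 3.27 CPM after FP and 26.4, 68.6 and 48.5 CPM after PBS (log2 fold change -3.56, SE 0.62, -4.24 without FP replicate 2). The values of C1qc were 5.26, 10.7, 1.10 and 3.06 CPM after FP and 34, 94.2 and 60.9 CPM after PBS (log2 fold change -3.66, SE 0.63, -4.36 without FP replicate 2). All 3 were called lower, with a median log2 fold change of -3.56 (-4.24 without FP replicate 2). They kept 1 order of libraries in each group, replicate 2 above 3 above 1 after PBS and replicate 2 highest and replicate 3 lowest after FP. After PBS they also kept a nearly fixed ratio, with 1.02 to 1.07 counts of C1qb and 1.29 to 1.41 counts of C1qc per count of C1qa. After FP, where C1qa had 15 to 79 counts, these ratios were 0.467 to 1.24 and 0.80 to 1.53.

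Lysosomal and antimicrobial genes differed least, at a median log2 fold change of -0.75. Ctss, the cathepsin that trims the invariant chain of MHC class II, had 187, 210, 142 and 127 CPM after FP and 185, 177 and 170 CPM after PBS. Its groups overlapped and it was not called (log2 fold change -0.09, SE 0.16). Ctsd, an aspartic protease, had 93.4, 130, 105 and 94.7 CPM after FP and 119, 144 and 123 CPM after PBS. FP replicate 2 stood above 2 of the PBS libraries, and Ctsd was not called either (log2 fold change -0.28, SE 0.13). It passed with upper-quartile scaling (-0.49), with library size alone (-0.56) and without FP replicate 2 (-0.40), and Ctss passed with library size alone (-0.39).

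Ctsb, a cysteine protease, was called lower at 215, 281, 191 and 188 CPM after FP and 295, 460 and 344 CPM after PBS, a 1.68-fold difference (log2 fold change -0.75, SE 0.18). Its highest FP library, replicate 2, stood just under its lowest PBS library, replicate 1. Lyz2, the lysozyme of myeloid cells, had 7.08, 8.96, 3.56 and 3.84 CPM after FP and 14.5, 16.2 and 15.5 CPM after PBS (log2 fold change -1.41, SE 0.29), and unlike most of the 39 genes it was nearly equal in the PBS libraries. Mpeg1, a pore-forming protein of the phagosome, had 16.8, 25.3, 8.78 and 9.54 CPM after FP and 63.1, 155 and 109 CPM after PBS, a 7.27-fold lower fitted level (log2 fold change -2.86, SE 0.44), which placed it with the macrophage receptors and not with the cathepsins. Per kb of exon, Ctss stood highest of the 39 genes in both groups, at 131 CPM per kb after PBS and 123 after FP. Hmox1 was next after PBS at 91.6, followed by Ctsb at 60.6, Ctsd at 54.7 and C1qa at 44.5. After FP, Ctsd at 45.0 and Ctsb at 36.1 followed Ctss, and every other gene was at or below the 5.74 of Axl.

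Fc receptors and their signalling partners were lower with 1 exception. Fcgr1, the high-affinity receptor for IgG, had 0.215, 0.443, 0.274 and 0.356 CPM after FP and 3.0, 9.65 and 5.24 CPM after PBS (log2 fold change -4.15, SE 0.47). Fcgr3, an activating receptor of lower affinity, had 2.58, 1.86, 0 and 0.498 CPM after FP and 7.32, 18.6 and 13.7 CPM after PBS (log2 fold change -3.49, SE 0.70). Fcgr4, which lies beside Fcgr3 on chromosome 1 and also encodes an activating IgG receptor, had 3.22, 2.66, 1.10 and 1.42 CPM after FP and 2.38, 8.70 and 3.49 CPM after PBS. Its groups overlapped, because PBS replicate 1 held less than FP replicates 1 and 2, and it was not called (log2 fold change -1.25, SE 0.49). Its log2 fold change was -0.50 without PBS replicate 2, and it passed without FP replicate 1 (-1.50), without PBS replicate 1 (-1.55), with upper-quartile scaling (-1.46) and with library size alone (-1.54).

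Fcer1g encodes the adaptor that carries the signal of these receptors, Tyrobp encodes an adaptor of other myeloid receptors, and natural killer cells express both. Fcer1g had 2.79, 2.39, 0.731 and 1.21 CPM after FP and 9.25, 22 and 16.9 CPM after PBS (log2 fold change -3.20, SE 0.41), and Tyrobp had 2.25, 4.43, 1.28 and 2.28 CPM after FP and 8.90, 24.9 and 16.5 CPM after PBS (log2 fold change -2.71, SE 0.42). Sirpa, the receptor for the protective signal Cd47, had 9.01, 18.7, 2.47 and 5.48 CPM after FP and 67.1, 189 and 133 CPM after PBS, a 14.6-fold lower fitted level (log2 fold change -3.87, SE 0.62, -4.54 without FP replicate 2). It was the most abundant of the 6 per kb of exon after PBS, at 26.4 CPM per kb. The group's median log2 fold change was -3.35, with 5 of 6 called lower.

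Secreted and lipid-handling genes were all called lower, at a median log2 fold change of -3.61. Apoe, the lipid carrier apolipoprotein E, had 4.18, 9.84, 3.93 and 5.34 CPM after FP and 50.6, 99.2 and 64.9 CPM after PBS (log2 fold change -3.61, SE 0.34). Cd5l, a secreted protein of tissue macrophages, had 5.37, 9.04, 0.548 and 3.06 CPM after FP and 20.3, 46.5 and 33.1 CPM after PBS (log2 fold change -2.90, SE 0.63, -3.51 without FP replicate 2), and its FP replicates ran from 0.548 to 9.04 CPM. Hpgd, the dehydrogenase that inactivates prostaglandins, had 0.644, 1.33, 0.183 and 0.783 CPM after FP and 11, 31.7 and 22 CPM after PBS (log2 fold change -4.84, SE 0.47). In all 3 genes FP replicate 2 was the highest FP library and remained below every PBS library.

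**Figure D3:**
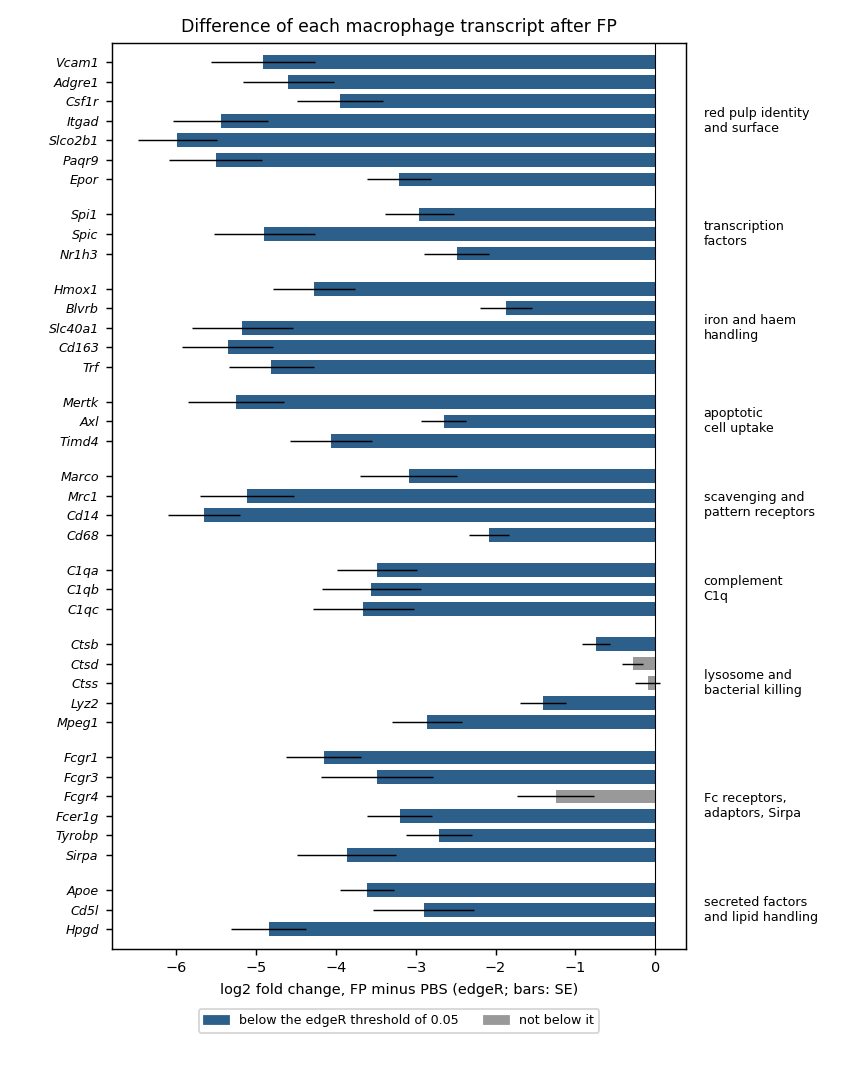
Fitted log2 fold change of FP minus PBS for each of the 39 genes, by functional group, with bars for the SE, blue for genes called lower by edgeR and grey for genes not called. Surface markers and iron handling genes reach below -4, and the cathepsins stay above -1.

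Some of the functional groups took different parts of the macrophage signal in the 2 conditions, and others overlapped. Leaving out the 3 cathepsins, the surface markers made up 29.8% to 30.5% of the summed CPM after PBS and 10.5% to 20.2% after FP. Iron and haem genes made up 21.9% to 22.4% after PBS and 11.4% to 14.5% after FP. Apoptotic cell receptors, of which Axl is most of the sum, went the other way, with 10.7% to 11.5% after PBS and 15.7% to 29.7% after FP. C1q overlapped at 6.51% to 6.99% and 4.39% to 9.62%. Transcription factors overlapped too, at 2.81% to 3.78% after PBS and 2.87% to 4.0% after FP, and so did scavenging receptors, at 6.80% to 7.48% and 5.92% to 7.87%. Fc receptors, at 7.48% to 8.30% and 8.26% to 12.3%, and secreted factors, at 5.12% to 6.26% and 6.25% to 7.36%, overlapped narrowly. The shares of the surface, iron, apoptotic cell and C1q groups after PBS were thus close to each other in 3 libraries whose sum ran from 1309 to 3284 CPM. The summed CPM favours genes with long exons in both groups alike.

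The level of these genes varied between libraries of 1 group, and it did so together. After PBS, replicate 2 stood above replicate 3 and replicate 3 above replicate 1 in 35 of the 39 genes, an order found in 18.5% of all genes tested. The 4 others were Ctss, Cd14, Timd4 and Marco. Cd14 and Timd4 had equal counts in PBS replicates 1 and 3, 48 and 42 in each, so their order rested on the scaling. Among the 39 genes the median ratio of PBS replicate 2 to replicate 1 was 2.55 and that of replicate 3 to replicate 1 was 1.75, where both medians over all genes were 1.0. After FP, replicate 2 was highest in 33 genes, against 29.9% of all genes, and replicate 3 was lowest in 31, against 20.6%. The median ratio of FP replicate 2 to replicate 3, over the 35 genes with counts in replicate 3, was 3.88, where that of all genes was 1.04. With library size alone 37 genes had that PBS order, against 21.9% of all genes. Without PBS replicate 2 the median log2 fold change of the 39 genes was -3.24, and without FP replicate 3 it was -3.39.

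Genes that spread more between the PBS libraries tended to have a larger difference after FP. Across the 39 genes, the log2 ratio of PBS replicate 2 to replicate 1 had a Pearson r of -0.52 and a Spearman rho of -0.38 with the log2 fold change. For the 35 genes with counts in FP replicate 3, the log2 ratio of FP replicate 2 to replicate 3 had an r of -0.60 and a rho of -0.65 with it. The ratio within PBS and the ratio within FP had an r of 0.53 and a rho of 0.40 over the same 35 genes. These are descriptions across genes of the same 7 libraries, the fold change shares its libraries with both ratios, and genes are not independent replicates. Ctss, Lyz2, Ctsd and Ctsb stood at the end with little spread and little difference, at ratios of 0.957 to 1.56, and Mertk and Spic stood at the other, at 3.38 and 3.37. Cd14 departed from the pattern, with a ratio of 1.49 and a log2 fold change of -5.65, and so did Fcgr4, with 3.66 and -1.25, and Nr1h3, with 3.41 and -2.49.

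**Figure D4:**
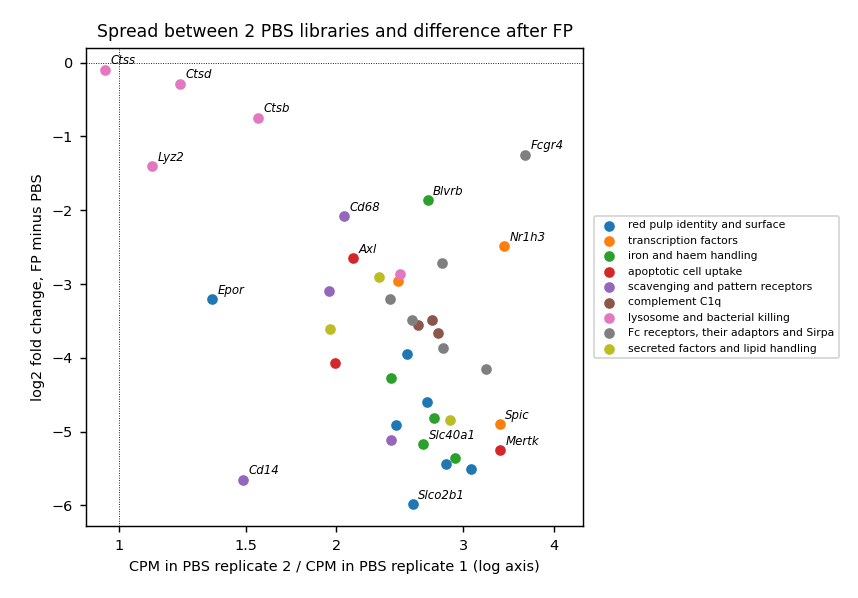
Ratio of the CPM in PBS replicate 2 to that in PBS replicate 1 on a log axis against the log2 fold change of FP minus PBS, 1 point per gene, coloured by functional group. Ctss, Ctsd, Lyz2 and Ctsb lie at the upper left, Mertk and Spic at the lower right, Cd14 at the lower left and Fcgr4 at the upper right.

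Ratios of 1 transcript to another within a library do not depend on how libraries are scaled. Per count of Slc40a1, Vcam1 had 0.991 to 1.15 counts after PBS and 0.990 to 1.37 after FP, and Mrc1 had 0.425 to 0.471 and 0.390 to 0.505. Mertk had 0.187 to 0.254 after PBS and 0.190 to 0.276 after FP. Vcam1, Mrc1 and Mertk therefore overlapped in their proportion to ferroportin, although their fitted levels were 30.2-fold, 34.7-fold and 38.2-fold lower after FP. They are among 12 genes that overlapped, and some other red pulp markers did not. Adgre1 was higher relative to Slc40a1 in every FP library than in any PBS library, reaching 0.303 after FP against at most 0.177 after PBS. Hmox1 was higher in the same way, reaching 2.35 after FP against at most 0.610 after PBS. Itgad was slightly lower relative to Slc40a1 after FP, with 0.171 to 0.261 against 0.268 to 0.288.

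Other transcripts fell less than Slc40a1. C1qb had 0.154 to 0.166 counts per count of Slc40a1 after PBS and 0.412 to 0.533 after FP, and C1qc had 0.193 to 0.223 and 0.430 to 0.706. For C1qa the ranges were 0.149 to 0.159 and 0.420 to 0.882. Cd5l went from 0.105 to 0.127 after PBS to 0.353 to 0.658 after FP, and Csf1r from 0.601 to 0.738 to 1.41 to 2.65. Sirpa was at 0.420 to 0.447 and 0.770 to 1.59, and Mpeg1 at 0.346 to 0.395 and 1.34 to 5.65. Axl reached 2.39 to 13.2 after FP from 0.579 to 0.724. In all, 24 of the 38 other genes were higher relative to Slc40a1 in every FP library than in any PBS library, 2 were lower (Itgad and Slco2b1) and 12 overlapped. Of all other genes tested, 98.6% were higher and 0.0752% were lower, so a higher ratio was the rule in the table as a whole and the 24 are not particular in it. Vcam1 and Adgre1 were also used as denominators, both chosen after the values were seen. Of the 38 other genes, 22 were higher and 3 lower in all FP libraries relative to Vcam1, and 18 were higher and 8 lower relative to Adgre1. The C1q genes, Cd5l, Csf1r, Sirpa and Mpeg1 were among the higher with both. The share over all genes was not computed for these 2 denominators, so these counts are not read as particular to the genes.

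**Figure D5:**
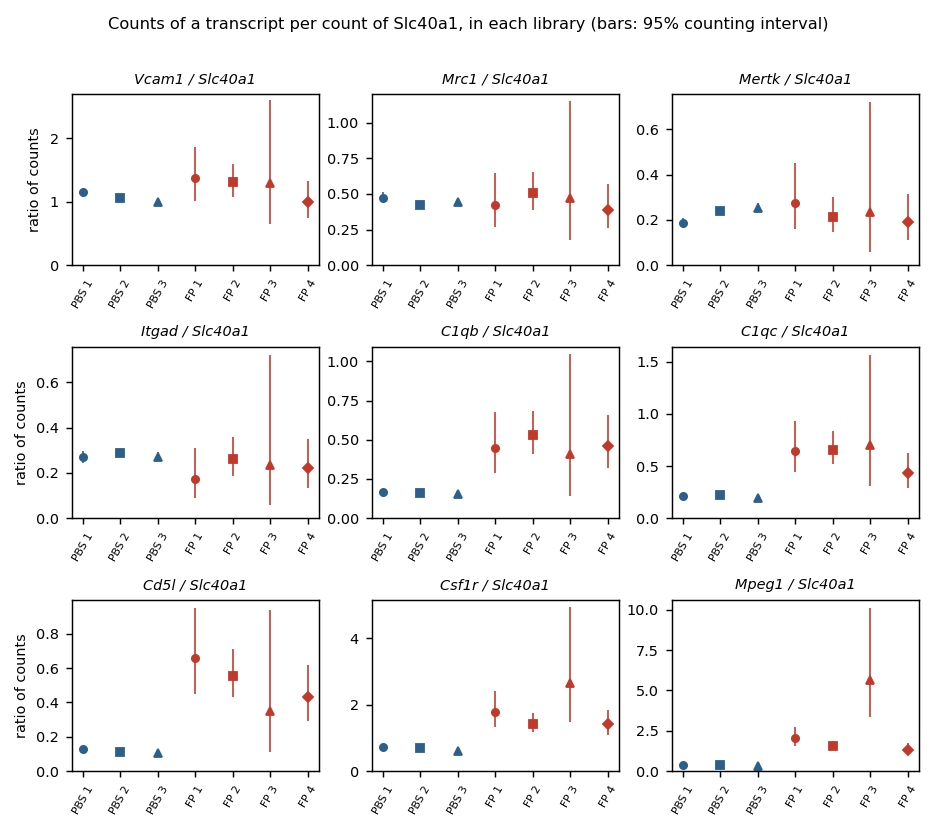
Counts of 9 transcripts per count of Slc40a1 in each library, with bars for the 95% counting interval, PBS libraries in blue and FP libraries in red, each panel with a linear axis from 0. Vcam1, Mrc1 and Mertk overlap between the groups, whereas C1qb, C1qc, Cd5l, Csf1r and Mpeg1 lie higher in all FP libraries.

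Other genes of the same pathways, from lists that hold none of the 39, were compared in the same edgeR test, with adjusted p values over all 15954 genes. These lists too were chosen with earlier results of these data known, so their counts are a description and no independent evidence. Of 23 other macrophage and monocyte genes tested, 16 were lower and 2 were higher, where 18.5% of all genes were lower and 21.0% higher. Pilra, an inhibitory myeloid receptor, had a log2 fold change of -4.38 (adjusted p = 8.3e-05). The 2 that were higher were Maf (0.47) and the chemokine receptor Ccr2 (2.05), both also genes of T cells. Maf was no longer called with upper-quartile scaling (0.27) or with library size alone (0.21).

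Of 24 iron and haem genes outside the group, 5 were lower and 6 were higher, near the 18.5% and 21.0% of all genes, and their median was 0.03. The phagosomal iron transporter Slc11a1 (-3.63, adjusted p = 7.8e-05) and the haem-haemopexin receptor Lrp1 (-4.58, adjusted p = 0.0015) were lower, and so was the mitochondrial iron importer Slc25a37 (-0.73). The transferrin receptor Tfrc was higher, at 137 ± 23.7 CPM (SD, n = 4) after FP and 56.5 ± 5.17 CPM (SD, n = 3) after PBS (1.28, adjusted p = 9.1e-05), as were the haem synthesis enzyme Alad (0.84) and the iron chaperone Pcbp1 (0.82). Fth1, the heavy chain of the iron store ferritin, had 201 ± 31.1 CPM (SD, n = 4) after FP and 209 ± 13.3 CPM (SD, n = 3) after PBS and was not called (log2 fold change -0.06, SE 0.12), but it was called lower with upper-quartile scaling (-0.27) and with library size alone (-0.34).

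Of 10 other complement genes tested, 7 were lower, beside 18.5% of all genes, among them properdin, Cfp (-2.95, adjusted p = 6.6e-05), the regulator Cd55 (-0.76) and the integrin chain Itgax (-2.24). The 1 higher was C1qbp (0.49), a mitochondrial protein first found by binding C1q, and it was no longer called with upper-quartile scaling (0.28), with library size alone (0.21), or without FP replicate 2 (0.41), PBS replicate 2 (0.52) or PBS replicate 3 (0.40). Of 26 other lysosomal genes, 11 were lower and 7 were higher, where all genes had 18.5% and 21.0%. Ctsl (-2.31) and Tpp1 (-0.60) were lower, and Glb1 (0.70), Npc2 (0.73) and Ctsa (0.51) were higher. Ctsa was no longer called with library size alone (0.24).

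Of 13 other genes of Fc receptor signalling tested, 7 were lower and 2 higher, beside 18.5% and 21.0% of all genes, with the inhibitory receptor Pirb at -3.40 (adjusted p = 4.2e-04) and the kinase Lyn at -2.12. The 2 higher were Cd47, the ligand of Sirpa, with 584 ± 41.3 CPM (SD, n = 4) after FP and 380 ± 16.7 CPM (SD, n = 3) after PBS (0.62, adjusted p = 6.0e-04), and the phosphatase Inpp5d (0.25), whose sign flipped with library size alone (-0.01). Inpp5d was also not called with upper-quartile scaling (0.05) or without FP replicate 2 (0.24), FP replicate 3 (0.24), PBS replicate 1 (0.24), PBS replicate 2 (0.30) or PBS replicate 3 (0.25). Of 16 other genes of apoptotic cell uptake and lipid handling, 8 were lower, beside 18.5% of all genes, and 3 were higher, near the 21.0% of all genes. Abca1, the cholesterol exporter, had 9.78 ± 1.11 CPM (SD, n = 4) after FP and 68.9 ± 10.7 CPM (SD, n = 3) after PBS (-2.82, adjusted p = 1.3e-06). The endothelial scavenger receptor Stab2 (-3.75) was lower, whereas Mfge8 (1.22), Tyro3 (0.79) and the bridging ligand Pros1 (0.46) were higher. Pros1 was no longer called with upper-quartile scaling (0.26), with library size alone (0.20) or without PBS replicate 2 (0.41), and Tyro3 with library size alone (0.52) or without PBS replicate 3 (0.67).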

How the data were processed

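The authors deposited raw gene counts without normalization. Per the series' design text, reads were mapped to GRCm38 with STAR (2.5.0 there, 2.5.0b per the submitters' processing notes) and counted per GENCODE M13 gene with featureCounts 1.5.0. Per the labels' protocols, libraries came from 25 ng of total RNA with ribosomal RNA removed. The strand setting and the handling of reads with several matches are not given in the sources used here, so counts of Fcgr3 and Fcgr4, which resemble each other, and of the 14 of the 39 genes whose exons overlap another gene (Vcam1, Csf1r, Itgad, Slco2b1, Nr1h3, Trf, Mertk, Mrc1, Ctsb, Ctsd, Ctss, Fcgr3, Fcgr4 and Hpgd) are less certain. Exon lengths and positions came from GENCODE M21 of the same build. Symbols were found for 50376 of 51138 identifiers.

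FP (4 libraries) was set against PBS (3 libraries) in edgeR 4.0.16 under R 4.3.3, where the design text names DESeq2, with filterByExpr, TMM factors, the quasi-likelihood test with robust empirical Bayes, and Benjamini-Hochberg adjustment over 15954 genes with a threshold of 0.05. Fitted folds and log2 fold changes come from this model. DESeq2 1.42.0, limma-voom (limma 3.58.1), other scalings and filters, each library left out, and a replicate block were the alternatives. Counting intervals and floors cover counting error only, because without molecular identifiers several reads can stem from 1 molecule. On simulated counts of 15954 genes, with 50 genes altered at each size, the test found 12 at 1.5-fold, 25 at 2-fold, 43 at 4-fold and 47 at 8-fold, and 4 of its 131 calls were false. The altered genes were a small part of the simulated table and their directions were drawn at random. In the data 39.5% of genes were called, so these rates need not hold there.

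The 39 genes, their groups and the lists of other genes were chosen with earlier results of these data known. From each list of other genes, those named were taken from the 3 most abundant and from up to 3 called in each direction with the smallest p. Some of the genes this rule took are not reported here.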

Additional observations from a re-analysis of the deposited data

Results flagged for a closer look

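The 39 genes were each checked for an FP library far from the other 3. Timd4, the phosphatidylserine receptor Tim-4, was the only 1 of them so marked: it had 0.709 CPM in FP replicate 2, where the others had 0.107, 0.142 and 0.183 CPM. The gap was 0.875 of the range, above Dixon's critical value for 4 samples. Chance marks about 1 in 20 such groups, and the counts behind these values are few, 13 over the 4 libraries. The PBS group, with 3 libraries, was not checked in this way.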

How the results depend on the processing

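Of the 39 genes, 34 to 39 were called lower and 0 higher under every alternative run, and their median log2 fold change ran from -4.24 to -3.24. With upper-quartile scaling, 1 macrophage and monocyte gene, 0 complement genes and 1 Fc signalling gene were called higher. With library size alone, the genes called higher were 1 of the macrophage and monocyte list, 0 of complement, 3 of lysosome, 1 of Fc signalling and 1 of apoptotic cell uptake and lipid, and 8 iron genes were called lower. That scaling also moved the median of the scavenging receptors to -4.38 and of the lysosomal group to -1.03, and turned Inpp5d to -0.013. Leaving out 1 library at a time gave 4088 to 7277 genes called in all (4088 without PBS replicate 3), 3 to 6 iron genes lower, 0 to 1 complement genes higher, 6 to 12 lysosomal genes lower and 4 to 8 higher, 1 to 2 Fc signalling genes higher, and medians of -4.99 to -3.64 for apoptotic cell uptake and -4.59 to -3.70 for the scavenging receptors. Ctss then ran from -0.22 to 0.014 and Fth1 from -0.15 to 0.029, both above 0 without FP replicate 4. The causes were not tested.

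Replicate numbers are shared between the groups, but same-numbered libraries did not all deviate together (correlations of 0.219, 0.0702 and 0.0966 for numbers 1 to 3), and not every library correlated best with its own number, so the numbers were not taken as pairs. With the replicate block, 7870 genes were called, Fth1 was at 0.026 (0.025 with the block over replicates 1 to 3 alone), and 34 of the 39 genes were called lower with each. C1qb, Fcgr3, Sirpa and Cd5l were no longer called, at log2 fold changes of -3.58, -3.21, -3.77 and -2.86, and Ctsd (-0.24) and Fcgr4 (-1.01) were. Genes at a few counts per library, such as Cd14, Trf, Marco and Slco2b1, are limited by depth.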
